A study of Homo sapiens with 54 samples.

Results

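The experiment described here is the treatment of A549 cells that carry an empty vector with the compound coded CP14 at 5 µM for 48 h, as compared with vehicle (DMSO) in the same cells. Its libraries were chosen by their sample labels and number 6 of the 54 in the series, 3 with CP14 and 3 with vehicle. A549 is a human lung adenocarcinoma cell line. The series holds 18 groups of 3 libraries, in which A549 cells with the empty vector or with a USP18 expression vector received vehicle, CP2 at 2 or 5 µM, or CP14 or CP18 at 1, 2.5 or 5 µM, all for 48 h. Other groups used below are empty-vector cells given CP14 at 1 or 2.5 µM, CP18 at 5 µM or CP2 at 5 µM, and USP18 cells given vehicle or CP14 at 5 µM. The labels name the compounds by code alone, so no structure is given for any of them. Each vector is represented by 1 engineered cell population, and a difference between vectors cannot be told apart from a difference between those populations. The labels number the replicates without saying whether they were separate cultures, so p-values measure only the spread between these samples, which may be technical. RNA was measured in bulk, and a lower level of a gene can reflect fewer cells that express it or less of its RNA per cell, which cannot be told apart here.

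The deposited expected counts summed to 21576354, 18072475 and 25609062 in the vehicle libraries and to 18094065, 19775980 and 17866670 in the CP14 libraries. Of 58870 genes in the table, 15947 passed a filter on low counts and were tested with edgeR's quasi-likelihood test, with p-values adjusted by the Benjamini-Hochberg method. Levels are given as counts per 1000000 (CPM), scaled between all 54 libraries by trimmed means of M-values (TMM). Fold changes are log2 values of CP14 minus vehicle, each from 3 libraries per group, and are given with a standard error. Standard errors and intervals were derived from the fold change and the test statistic of the fit. The fit shares its estimate of spread across genes and over all of its libraries, which include USP18 cells in the main comparison. They are therefore not the spread of the 6 libraries alone. A gene was called when its adjusted p was under 0.05 and its log2 fold change was beyond 1 in either direction, and "rose" and "fell" are used only of called genes unless another threshold is named.

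USP18 removes the ubiquitin-like protein ISG15 from other proteins and dampens signalling from the type I interferon receptor. A cell that stops dividing loses transcripts of the replication and mitosis programmes, which E2F factors and the DREAM and MuvB complexes control through short promoter motifs. Cells short of amino acids or under stress in the endoplasmic reticulum translate the transcription factor ATF4, which raises genes of amino acid uptake and synthesis, and cells rich in sterols lower the SREBP-driven genes of cholesterol synthesis. A549 cells also express a set of genes known from liver, among them the fibrinogen chains.

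The labelled cell type was checked against marker genes. KRT8, a keratin of simple epithelia, measured 6152, 6167 and 6125 CPM in the vehicle libraries and 2114, 2179 and 2244 CPM in the treated libraries. Its partner KRT18 measured 4897, 5152 and 5047 CPM in the vehicle libraries and 2118, 2249 and 2241 CPM in the treated libraries. The treated libraries lay far below the vehicle libraries for both keratins, but both stayed among the abundant transcripts. KRT7, another simple-epithelial keratin, measured 1683, 1630 and 1783 CPM in the vehicle libraries and 3066, 3460 and 3236 CPM in the treated libraries. Its treated libraries all lay above the vehicle libraries, but its log2 fold change of 0.94 ± 0.040 did not reach the fold threshold. Of the 6 epithelial markers, 4 fell (KRT8, KRT18, CDH1 and EPCAM), as compared with 7.53% of all genes, and KRT19 was at -0.04 with a 95% interval of -0.27 to 0.19. The list's summed level was 12968, 13190 and 13185 CPM with vehicle and 7398, 7989 and 7827 CPM with CP14. The markers of alveolar type II cells were at or near 0, since SFTPA1 and SFTPB had 0 counts in all 6 libraries, and NKX2-1, SFTPC and SFTPD had at most 9 counts in any of the 6. These libraries thus carry epithelial keratins without the surfactant genes.

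Markers of other cell types were low. None of the 5 endothelial markers passed the filter, and their summed level was 0.515, 0.224 and 0.200 CPM with vehicle and 0, 0.0995 and 0.111 CPM with CP14, with KDR at 0 in all 6 libraries. Among haematopoietic markers, CD3E and MS4A1 were at 0 in all 6 libraries and PTPRC had at most 3 counts in any of them. CD68, a lysosomal glycoprotein that many cell types make, was the only member of that list tested and measured 36.3, 36.2 and 38.0 CPM in the vehicle libraries and 64.7, 72.3 and 62.5 CPM in the treated libraries. Of 7 fibroblast markers 5 were tested and 4 fell, COL1A1 (-1.01), COL3A1 (-1.69), LUM (-1.39) and THY1 (-1.37), as compared with 7.53% of all genes, while PDGFRA was at -1.53 and was not called. The fibroblast list summed to 17.8, 14.7 and 17.1 CPM with vehicle and to 7.63, 7.96 and 8.34 CPM with CP14, and COL1A1 made up most of it. COL1A1 lost its call with scaling by total counts alone (-0.96) and without vehicle replicate 1 (-0.98), vehicle replicate 3 (-0.92) or treated replicate 3 (-0.96), and LUM lost it without treated replicate 2 (-1.06). THY1, whose groups overlapped, lost it without vehicle replicate 1 (-1.14), vehicle replicate 2 (-1.20), treated replicate 1 (-1.11) or treated replicate 2 (-1.36). The part of these low-level markers in the other results was not tested.

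USP18 itself checks the vector labels. Its level was 10.5, 10.7 and 11.1 CPM in empty-vector cells with vehicle and 1312, 1301 and 1336 CPM in USP18 cells with vehicle, so the vehicle libraries carry the vector that their labels name. In empty-vector cells given CP14 it measured 9.30, 10.4 and 8.78 CPM, each value below the lowest vehicle library. This gave a log2 fold change of -0.18 ± 0.080 with a 95% interval of -0.35 to -0.02 that did not reach the fold threshold.

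CP14 at 5 µM changed the RNA of these cells widely. Many genes of mitosis, DNA replication, cholesterol synthesis and liver-type secretion fell, while many ATF4 target genes and NF-kappaB target genes rose. Of 15947 genes tested, 2207 were called (13.8%), with 1006 higher (6.31%) and 1201 lower (7.53%). At an adjusted p under 0.05 with no limit on size, 4949 genes were higher (31.0%) and 5123 lower (32.1%). For 10665 genes (66.9%) the 3 treated libraries all lay on the same side of all 3 vehicle libraries. The median log2 fold change over all genes tested was 0.005, close to 0 after scaling.

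**Figure D1:**
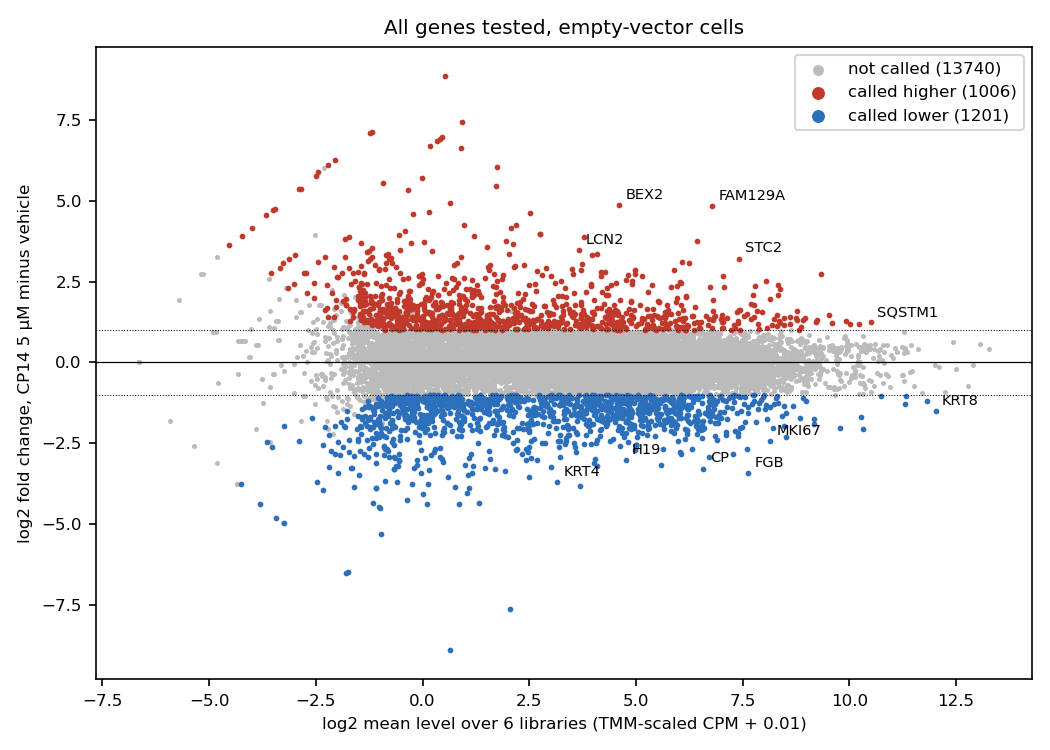
Each point is a gene tested, with its log2 mean level over the 6 libraries (TMM-scaled CPM plus 0.01) on the horizontal axis and its log2 fold change, CP14 5 µM minus vehicle, on the vertical axis. Red points mark the 1006 genes called higher, blue points the 1201 called lower and grey points the 13740 not called, with dotted lines at 1 and -1, and called genes appear at every level of expression.

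Among called genes whose groups did not overlap and whose mean over the libraries compared was at least 5 CPM, the rule behind every ranking given here, the largest rises were in genes that were mostly low with vehicle. BEX2, a small adaptor-like protein of neural cells, measured 1.17, 1.96 and 1.72 CPM in the vehicle libraries and 48.4, 48.7 and 44.3 CPM in the treated libraries. Its log2 fold change was 4.87 ± 0.11 (adjusted p = 6.3e-19). FAM129A, also called NIBAN1, is a stress-inducible regulator of translation and cell survival and measured 7.40, 6.83 and 8.10 CPM in the vehicle libraries and 212, 214 and 215 CPM in the treated libraries. For both genes every treated library lay more than an order of magnitude above every vehicle library, and the log2 fold change of FAM129A was 4.83 ± 0.054 (adjusted p = 1e-23). LAMP3, a lysosomal membrane glycoprotein, measured 0.421, 0.616 and 0.319 CPM in the vehicle libraries and 11.5, 10.6 and 10.6 CPM in the treated libraries. HSPA6, an inducible heat shock protein of the HSP70 family, measured 0.702, 1.176 and 0.599 CPM in the vehicle libraries and 14.8, 12.1 and 10.8 CPM in the treated libraries, and its reads can be shared with near-identical family members. The groups of these low-level genes did not overlap either, and the log2 fold changes were 4.62 ± 0.18 for LAMP3, with as few as 8 counts in a vehicle library, and 3.97 ± 0.28 for HSPA6. On the human genome build hg38, with coordinates from GENCODE 44, BEX2 (ENSG00000133134.11) lies at chrX:103309346-103311007, FAM129A (ENSG00000135842.17) at chr1:184790724-184974508 and LAMP3 (ENSG00000078081.8) at chr3:183122215-183163839.

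ADM2, a peptide hormone of the calcitonin family, measured 1.59, 1.62 and 1.92 CPM in the vehicle libraries and 24.9, 26.1 and 25.9 CPM in the treated libraries. STC2, a secreted glycoprotein and an ATF4 target, measured 30.3, 31.7 and 37.5 CPM in the vehicle libraries and 312, 319 and 299 CPM in the treated libraries. LCN2, a secreted protein that binds bacterial iron carriers, measured 2.01, 1.96 and 2.31 CPM in the vehicle libraries and 21.2, 27.1 and 21.9 CPM in the treated libraries. All 3 treated libraries lay above all 3 vehicle libraries for each of these genes, with log2 fold changes of 3.89 ± 0.11 for ADM2, 3.21 ± 0.064 for STC2 and 3.47 ± 0.13 for LCN2. The transmembrane glycoprotein CDCP1 rose by 3.12. CLGN, a chaperone of the endoplasmic reticulum, rose by 3.09, and RPS6KA2, a ribosomal S6 kinase, rose by 3.03. Other members of the 15 largest rises were INSYN2B (3.97), the actin-binding protein ABLIM3 (3.35), the small GTPase RAB39B (3.32) and TMEM158 (3.04). Among the rises named, standard errors ran from 0.0467 to 0.275 on the log2 scale.

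Under the same rule for falls, NEB, which encodes the giant actin-binding protein nebulin, measured 27.2, 25.3 and 19.6 CPM in the vehicle libraries and 1.52, 1.59 and 1.99 CPM in the treated libraries. KRT4, a keratin of stratified epithelia, measured 16.67, 16.2 and 16.9 CPM in the vehicle libraries and 0.757, 1.39 and 1.66 CPM in the treated libraries. CA9, a carbonic anhydrase of the cell surface that hypoxia induces, measured 10.5, 11.1 and 9.70 CPM in the vehicle libraries and 1.03, 0.746 and 0.884 CPM in the treated libraries. Every treated library lay below every vehicle library for these 3 genes, and the log2 fold changes were -3.82 ± 0.16 for NEB (adjusted p = 1.2e-14), -3.70 ± 0.15 for KRT4 and -3.56 ± 0.19 for CA9. NEB (ENSG00000183091.19) lies at chr2:151485336-151734487, KRT4 (ENSG00000170477.13) at chr12:52806549-52814116 and CA9 (ENSG00000107159.13) at chr9:35673928-35681159. CP, which encodes the copper-binding plasma protein ceruloplasmin, measured 174, 191 and 156 CPM in the vehicle libraries and 18.8, 15.7 and 19.0 CPM in the treated libraries. INSL4, a member of the insulin and relaxin family, measured 86.2, 95.9 and 79.6 CPM in the vehicle libraries and 9.25, 8.80 and 11.2 CPM in the treated libraries. H19, an imprinted long non-coding RNA, measured 49.0, 50.0 and 45.4 CPM in the vehicle libraries and 5.73, 5.97 and 6.13 CPM in the treated libraries. These transcripts were well covered and lost most of their level, with log2 fold changes of -3.29 for CP, -3.16 for INSL4 and -3.01 for H19. The brush border proteins MYO1A (-3.23) and VIL1 (-3.11), the apical scaffold PDZK1 (-2.97), the urothelial plaque protein UPK3B (-2.99) and TMEM37 (-3.03) fell as well. ASGR1, a subunit of the hepatocyte asialoglycoprotein receptor, fell by 3.02 on the log2 scale, and BAAT, the enzyme that joins bile acids to amino acids, fell by 2.92 on the same scale. FGB, another of the 15 largest falls, is described with its list.

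**Figure D2:**
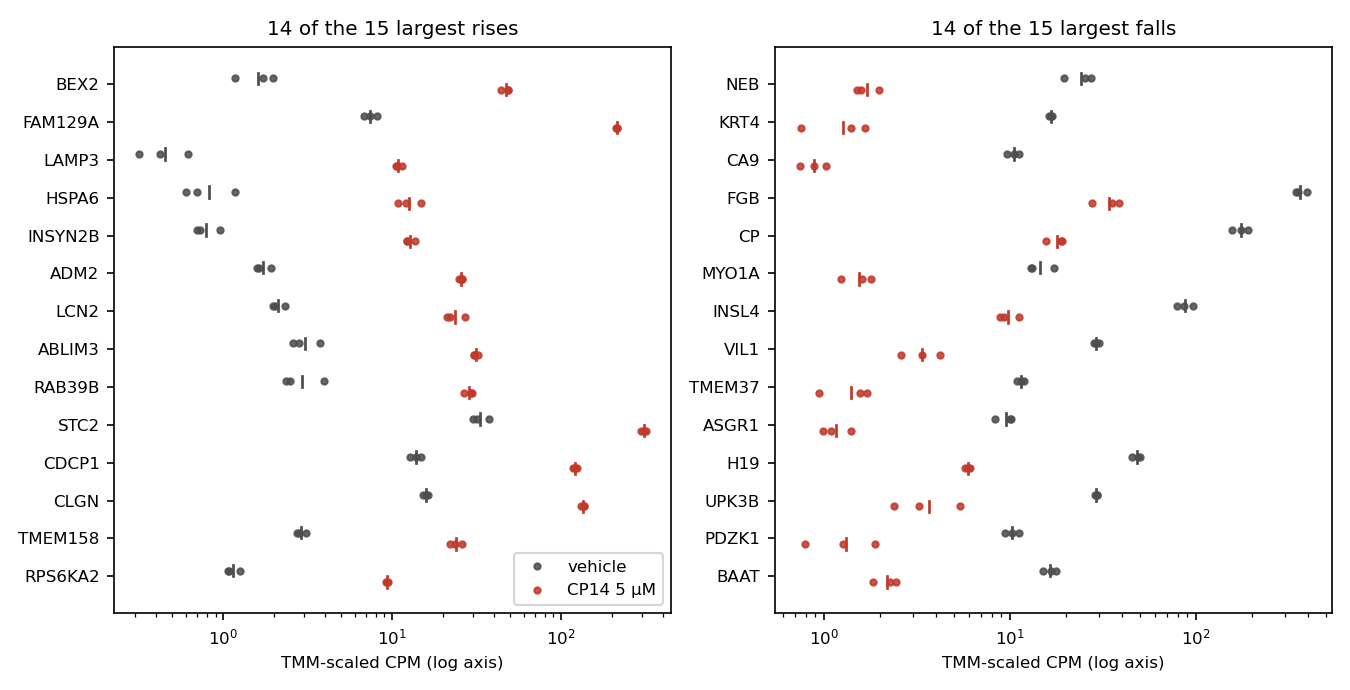
Points are the 3 vehicle libraries (grey) and the 3 CP14 5 µM libraries (red) in TMM-scaled CPM on a log axis for 14 of the 15 largest rises and 14 of the 15 largest falls, with a short line at each group's mean. Every gene shown has 2 separate clusters of points, since the rule for naming it required that the groups do not overlap.

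**Figure D3:**
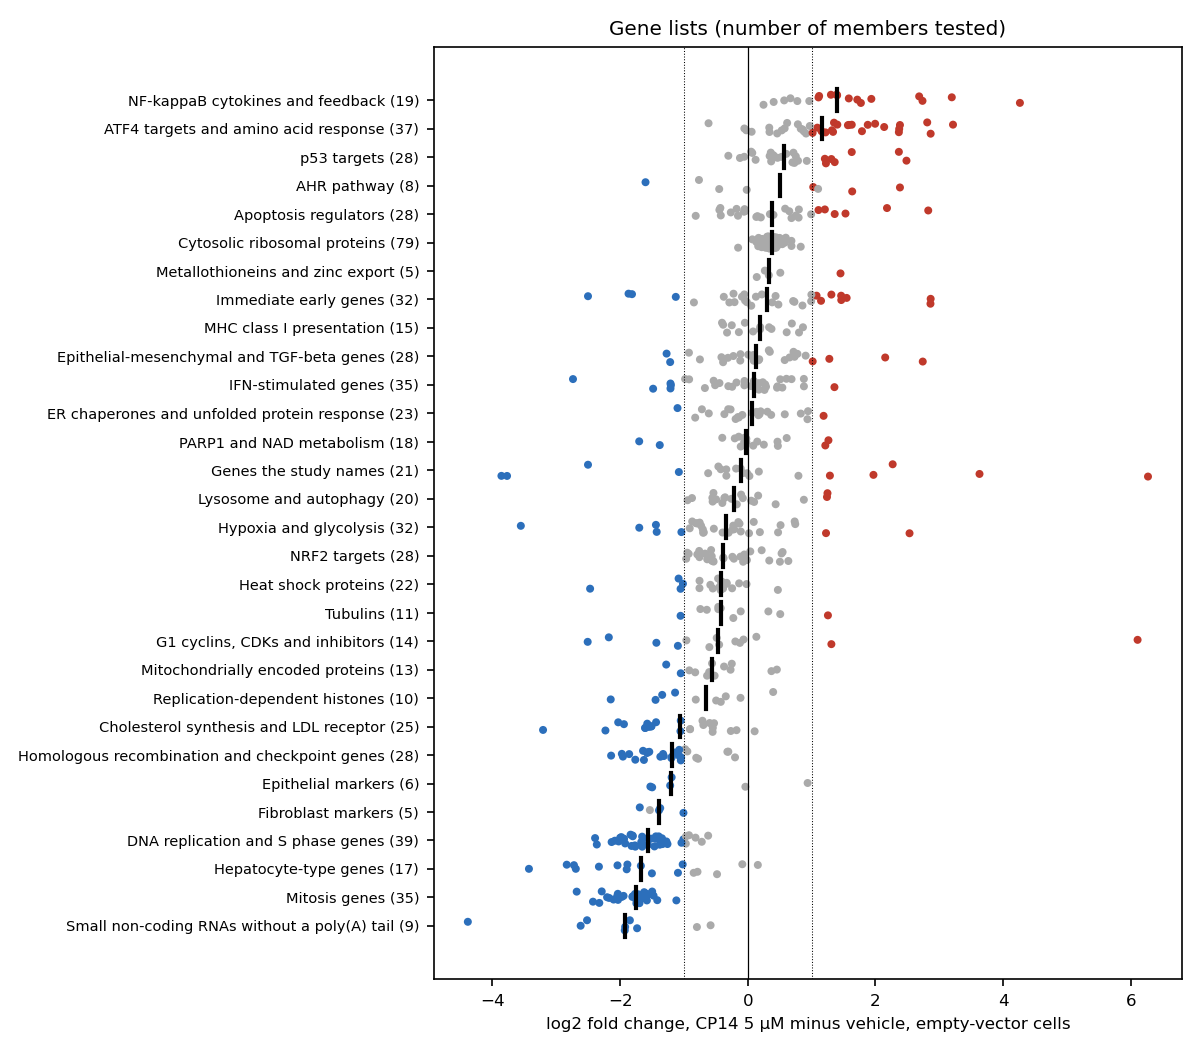
Each point is a tested member of a gene list, placed by its log2 fold change (CP14 5 µM minus vehicle) and coloured red when called higher, blue when called lower and grey otherwise, with a black bar at the list's median and the number tested in brackets. Medians run from -1.92 to 1.39, and a few of the farthest points (KLK2, CCND2, USP41, DCC and NCCRP1) are fitted values of genes with counts at or near 0 in a group.

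Mitosis was the only list of 5 or more tested genes in which every gene was called. All 35 genes fell, as compared with 7.53% of all genes tested, and their median log2 fold change was -1.75 as compared with 0.005 over all genes. The values ran from -2.68 to -1.12. MKI67, the proliferation antigen Ki-67, measured 482, 475 and 470.2 CPM in the vehicle libraries and 90.5, 79.9 and 95.8 CPM in the treated libraries. KIF20A, a kinesin of cytokinesis, measured 83.1, 84.4 and 88.9 CPM in the vehicle libraries and 14.0, 12.0 and 14.1 CPM in the treated libraries, and the spindle motor KIF11 measured 188, 190.4 and 194 CPM in the vehicle libraries and 43.1, 34.3 and 40.2 CPM in the treated libraries. The spread within each group was small beside the gap between groups, with log2 fold changes of -2.43 ± 0.060 for MKI67, -2.68 ± 0.065 for KIF20A and -2.29 ± 0.051 for KIF11. ASPM, a spindle pole protein, measured 157, 158 and 157 CPM in the vehicle libraries and 29.1, 30.9 and 34.2 CPM in the treated libraries. All of its treated libraries lay below its vehicle libraries, at a log2 fold change of -2.33 ± 0.047 (adjusted p = 9.6e-20).

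Replication genes fell almost as completely. Of 39 DNA replication and S phase genes, 33 fell, as compared with 7.53% of all genes, the other 6 were lower at an adjusted p under 0.05 (32.1% of all genes) without passing the fold threshold, and the median was -1.57. TK1, the thymidine kinase of S phase, measured 118, 118 and 119.7 CPM in the vehicle libraries and 22.8, 23.8 and 22.3 CPM in the treated libraries. RRM2, the small subunit of ribonucleotide reductase, measured 250.1, 257 and 276 CPM in the vehicle libraries and 56.3, 57.5 and 65.1 CPM in the treated libraries. ORC1, a subunit of the origin recognition complex, measured 38.6, 36.2 and 41.7 CPM in the vehicle libraries and 10.3, 8.45 and 8.89 CPM in the treated libraries. Groups stood apart for all 3, with log2 fold changes of -2.37 ± 0.048 for TK1 (adjusted p = 1.1e-19), -2.13 ± 0.051 for RRM2 and -2.08 ± 0.087 for ORC1. MCM6, a subunit of the replicative helicase, measured 160.0, 166 and 169 CPM in the vehicle libraries and 51.1, 50.9 and 55.2 CPM in the treated libraries. Each treated library lay below each vehicle library, at a log2 fold change of -1.66 ± 0.041. Of 28 homologous recombination and checkpoint genes 21 fell, as compared with the same 7.53%, with a median of -1.19 and all 28 lower at an adjusted p under 0.05, as compared with 32.1% of all genes. The largest of these falls were in the exonuclease EXO1 (-2.14), the helicase BRIP1 (-1.97), the recombination motor RAD54L (-1.96) and the checkpoint adaptor CLSPN (-1.86). MND1, a partner in strand exchange, fell by 1.12.

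Genes of the G1 phase did not move as a block. Of 15 listed genes 14 were tested, 2 rose and 4 fell, as compared with 6.31% and 7.53% of all genes. CDKN1A, the cyclin-dependent kinase inhibitor p21, measured 282, 273 and 282 CPM in the vehicle libraries and 688, 705 and 683 CPM in the treated libraries. CCND3, a D-type cyclin, measured 272, 273 and 282 CPM in the vehicle libraries and 56.0, 62.6 and 64.6 CPM in the treated libraries. Treated and vehicle libraries were well separated for both, and CDKN1A rose by 1.31 ± 0.035 while CCND3 fell by 2.18. The inhibitors CDKN2C (-2.51) and CDKN2D (-1.43) and the pocket protein RBL1 (-1.10) fell too. CCND2 was at 0 counts in every vehicle library and at 5, 14 and 5 with CP14, which is at least 2.90-fold higher against a floor of 3 counts per vehicle library, or at least 1.92-fold without treated replicate 2. The list's median was -0.47, unchanged when CCND2 stood at its bound.

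Promoters of genes that fell together are shown because cell cycle genes carry known short motifs. The cell cycle genes homology motif TTTGAA, searched on both strands in the 250 bases upstream of the RefSeq start site, was in 16 of the 29 mitosis genes that fell and had a promoter sequence (55.2%), as compared with 13.6% of 27305 promoters of the same length. The E2F motif TTTGGCGC was in 3 of 28 replication genes that fell (10.7%) and in 1 of 18 recombination genes that fell (5.56%), as compared with 0.553% of promoters. Over the 11571 tested genes with a promoter, the shares were 8.36% for TTTGAA and 0.847% for TTTGGCGC. Among members tested, fallen or not, the motifs were in 16 of 29 mitosis, 4 of 34 replication and 1 of 25 recombination genes. The shares therefore describe the lists, and a link between motif and fall was not tested. Each promoter shown here and below was picked from called members that hold the motif, so its match was set in advance. Below are 80 bases of the ASPM and MCM6 promoters, 5′ to 3′ on the strand of the gene, from RefSeq on GRCh38.p14, with the motif in capitals. ASPM lies on the minus strand and its stretch is chr1:197146740-197146819, 71 to 150 bases before the start site. MCM6 also lies on the minus strand and its stretch is chr2:135876490-135876569, 47 to 126 bases before the start site. In ASPM the motif reads as its reverse complement, TTCAAA. A match describes the letters in the window and is no measure of binding.
ASPM: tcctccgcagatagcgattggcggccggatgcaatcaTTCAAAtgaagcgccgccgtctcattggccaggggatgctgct
MCM6: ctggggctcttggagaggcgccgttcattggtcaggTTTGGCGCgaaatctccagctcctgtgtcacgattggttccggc

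Of 37 ATF4 targets and genes of the amino acid response, 21 rose, as compared with 6.31% of all genes, and the median was 1.16. ATF3, a transcription factor of stress, measured 6.46, 7.05 and 8.98 CPM in the vehicle libraries and 58.0, 56.1 and 51.7 CPM in the treated libraries. CHAC1, an enzyme that degrades glutathione, measured 4.26, 5.10 and 5.03 CPM in the vehicle libraries and 30.7, 37.0 and 33.2 CPM in the treated libraries. DDIT3, the transcription factor CHOP, measured 5.90, 7.89 and 6.94 CPM in the vehicle libraries and 38.5, 35.4 and 33.8 CPM in the treated libraries. All treated libraries of these genes lay above all vehicle libraries, and they rose by 2.86 ± 0.089 (ATF3), 2.81 ± 0.12 (CHAC1) and 2.38 ± 0.089 (DDIT3). ASNS, asparagine synthetase, measured 97.0, 94.5 and 102 CPM in the vehicle libraries and 343, 343 and 330.0 CPM in the treated libraries. It was higher in 3 of 3 treated libraries and rose by 1.79 ± 0.048 (adjusted p = 6.1e-18). The motif TGATGNAA, the core of the joint C/EBP and ATF element, was in 4 of the 19 members that rose and had a promoter (21.1%). It was in 4 of 32 members tested, as compared with 3.19% of promoters and 1.38% of tested genes with a promoter. The ASNS promoter, in which such an element is well known, is shown with the motif in capitals. ASNS lies on the minus strand and the stretch is chr7:97872433-97872512, 25 to 104 bases before the start site.
ASNS: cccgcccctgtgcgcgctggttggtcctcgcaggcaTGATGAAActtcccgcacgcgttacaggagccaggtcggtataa

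The other stress lists moved less or in the other direction. Among 23 chaperones and unfolded protein response genes of the endoplasmic reticulum, HSPA5, the chaperone BiP, measured 721, 729 and 742 CPM in the vehicle libraries and 1663, 1700 and 1630 CPM in the treated libraries. CALR, the lectin chaperone calreticulin, measured 657, 666 and 662 CPM in the vehicle libraries and 303, 304 and 319 CPM in the treated libraries. Neither gene overlapped between groups, and they were the only members called, HSPA5 higher (1.19 ± 0.037) and CALR lower (-1.10 ± 0.034), as compared with 6.31% and 7.53% of all genes, with a list median of 0.07. Among 22 heat shock proteins 4 fell, as compared with 7.53% of all genes, and 20 were lower at an adjusted p under 0.05, as compared with 32.1%, with a median of -0.42. Those that fell were HSPA1A (-1.02), DNAJB4 (-1.08), the mitochondrial co-chaperone HSPE1 (-1.05) and the small heat shock protein CRYAB (-2.47), whose counts were 43, 22 and 38 in vehicle libraries and 6, 4 and 6 in CP14 libraries. HSPA1A is nearly identical to HSPA1B, so its counts are uncertain, and it missed the fold threshold when libraries were scaled by total counts alone (-0.97) and without treated replicate 2 (-0.998). None of these members rose as HSPA6 did, and the highest value in the list was 0.471. At an adjusted p under 0.05, 1 member was higher, as compared with 31.0% of all genes. Of 5 metallothionein and zinc export genes tested 1 rose, MT2A by 1.45 ± 0.063, as compared with 6.31% of all genes. The zinc exporter SLC30A1 stood at 0.27 ± 0.049 without passing the fold threshold (list median 0.33). At an adjusted p under 0.05, 3 of the 5 were higher, as compared with 31.0% of all genes. Of 20 lysosome and autophagy genes, the autophagy receptor SQSTM1 measured 873, 839.6 and 892 CPM in the vehicle libraries and 1998, 2124 and 2037 CPM in the treated libraries. It rose by 1.24 ± 0.034 with no overlap between groups, and MAP1LC3B, the LC3B protein of autophagosomes, rose by 1.25, the 2 members that rose, as compared with 6.31% of all genes. The median of that list was -0.22, with 13 of its members lower at an adjusted p under 0.05, as compared with 32.1% of all genes.

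Of 19 NF-kappaB cytokines and feedback genes tested, 13 rose by edgeR and 12 by DESeq2, as compared with 6.31% of all genes by edgeR, and the median was 1.39. CXCL8, the neutrophil attractant interleukin-8, measured 7.96, 7.73 and 8.86 CPM in the vehicle libraries and 56.0, 54.5 and 54.3 CPM in the treated libraries. TRAF1, an adaptor of tumour necrosis factor receptors, measured 2.06, 2.30 and 2.19 CPM in the vehicle libraries and 13.3, 14.6 and 14.3 CPM in the treated libraries. The NF-kappaB subunit RELB measured 10.4, 8.12 and 11.8 CPM in the vehicle libraries and 37.1, 42.8 and 37.7 CPM in the treated libraries. Treated and vehicle libraries stood apart for each, with log2 fold changes of 2.74 ± 0.102 for CXCL8, 2.68 for TRAF1, 1.94 for RELB and 1.72 for NFKB2. The immediate early list was mixed, with 8 of 32 called higher and 4 lower, as compared with 6.31% and 7.53% of all genes, and a median of 0.30. FOSL1, an AP-1 subunit, measured 12.6, 14.4 and 16.3 CPM in the vehicle libraries and 107, 111 and 98.4 CPM in the treated libraries. NR4A1, an orphan nuclear receptor, measured 175, 192 and 179 CPM in the vehicle libraries and 52.8, 47.7 and 49.4 CPM in the treated libraries. FOSL1 rose by 2.86 and ATF3, named above, by 2.86, whereas all 3 NR4A receptors and FOS fell, NR4A1 by 1.87, NR4A2 by 2.503, NR4A3 by 1.13 and FOS by 1.81 on the log2 scale. The AP-1 motif TGANTCA was in 0 of the 5 risen members with a promoter, as compared with 6.60% of all promoters. Its share over tested genes with a promoter was 3.96%.

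Targets of p53 and regulators of apoptosis rose in part. Of 28 p53 targets 7 rose, as compared with 6.31% of all genes, with a median of 0.57. At an adjusted p under 0.05, 22 were higher, as compared with 31.0% of all genes. GADD45A, a growth arrest protein, measured 20.0, 20.0 and 19.5 CPM in the vehicle libraries and 114, 115 and 105 CPM in the treated libraries. SESN2, a sestrin that restrains mTORC1, measured 21.3, 19.7 and 19.9 CPM in the vehicle libraries and 107, 107 and 100.4 CPM in the treated libraries. GDF15, a secreted stress cytokine, measured 93.2, 84.3 and 78.1 CPM in the vehicle libraries and 253, 276 and 261 CPM in the treated libraries. Their log2 fold changes were 2.49 ± 0.076, 2.37 ± 0.058 and 1.63 ± 0.060, with no overlap between groups, and SESN2 and GDF15 also belong to the ATF4 list. Of 28 apoptosis regulators 6 rose, again beside 6.31%, and the median was 0.37. TNFRSF10B, the death receptor DR5, measured 237, 239 and 252 CPM in the vehicle libraries and 623, 633 and 614 CPM in the treated libraries. Its groups did not overlap and it rose by 1.36 ± 0.032. BCL2A1, a protein that restrains apoptosis, rose by 2.83 ± 0.199, while PMAIP1 (1.53) and BBC3 (1.21), which promote it, rose as well. TNFRSF10B, BBC3, BAX and FAS belong to both the p53 and the apoptosis list. The rises of TNFRSF10B and BBC3 are thus counted in both lists.

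Of 25 genes of cholesterol synthesis 14 fell, as compared with 7.53% of all genes, and the median was -1.06. At an adjusted p under 0.05, 24 were lower, as compared with 32.1% of all genes. INSIG1, which retains SREBP in the endoplasmic reticulum, measured 45.1, 48.8 and 44.6 CPM in the vehicle libraries and 10.7, 11.5 and 11.6 CPM in the treated libraries. ACAT2, an acetyl-CoA acetyltransferase, measured 46.0, 47.8 and 47.5 CPM in the vehicle libraries and 11.9, 12.1 and 12.9 CPM in the treated libraries. In both genes the treated libraries lay below all vehicle libraries, with log2 fold changes of -2.03 ± 0.075 for INSIG1 (adjusted p = 1e-15) and -1.94 ± 0.065 for ACAT2. SREBF2, the gene of the pathway's transcription factor SREBP2, measured 145, 142 and 139 CPM in the vehicle libraries and 68.0, 67.5 and 70.5 CPM in the treated libraries. Its groups did not overlap, and it passed the fold threshold at -1.05 ± 0.040. The sterol regulatory motif TCACNCCAC was in 1 of the 10 fallen members with a promoter, and that member is SREBF2 itself. The motif was in 1 of 18 members tested, as compared with 0.875% of promoters and 0.804% of tested genes with a promoter. SREBF2 lies on the plus strand and the stretch, with the motif in capitals, is chr22:41832937-41833016, 89 to 168 bases before the start site.
SREBF2: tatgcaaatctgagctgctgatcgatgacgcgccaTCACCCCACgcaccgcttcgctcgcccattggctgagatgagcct

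Of 23 listed liver-type genes of A549 17 were tested, 12 fell, as compared with 7.53% of all genes, and the median was -1.68. The fibrinogen beta chain gene FGB measured 353, 394 and 346 CPM in the vehicle libraries and 35.6, 27.6 and 38.8 CPM in the treated libraries. FGA, the alpha chain gene, measured 262, 292 and 257 CPM in the vehicle libraries and 40.3, 31.9 and 41.7 CPM in the treated libraries. The gamma chain gene FGG measured 137, 151 and 128 CPM in the vehicle libraries and 22.9, 18.6 and 22.9 CPM in the treated libraries. The 3 chains, which are assembled into 1 protein, were lower in every treated library, with -3.43 ± 0.085 for FGB (adjusted p = 1.9e-18), -2.84 ± 0.076 for FGA and -2.69 ± 0.074 for FGG. APOH, a plasma apolipoprotein, fell by 2.33. The summed level of the list was 2176, 2301 and 2102 CPM with vehicle and 600.1, 552 and 626 CPM with CP14.

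Of 32 genes of hypoxia and glycolysis 2 rose and 5 fell, as compared with 6.31% and 7.53% of all genes, and the median was -0.35. HK2, a hexokinase, measured 2.76, 3.14 and 2.55 CPM in the vehicle libraries and 15.3, 16.3 and 17.1 CPM in the treated libraries. The glucose transporter SLC2A3 measured 178, 177 and 183 CPM in the vehicle libraries and 51.3, 55.4 and 58.8 CPM in the treated libraries. Both stood apart between groups, HK2 higher by 2.53 ± 0.12 and SLC2A3 at -1.70 ± 0.051, and the angiogenic factor VEGFA rose by 1.23. CA9, given above, fell, as did the oxygen sensor EGLN3 (-1.44) and the aldolase ALDOC (-1.43). LDHA, lactate dehydrogenase A, measured 2308, 2251 and 2385 CPM in the vehicle libraries and 1137, 1096 and 1146 CPM in the treated libraries. LDHA passed the fold threshold narrowly at -1.04 ± 0.032 and stood at -0.99 with scaling by total counts alone. The hypoxia motif ACGTG was in 3 of the 4 fallen members with a promoter and in 13 of 28 members tested. This compares with 18.7% of promoters and 23.1% of tested genes with a promoter. Among 18 genes of PARP1 and NAD metabolism, NMNAT2 (1.26) and NMRK1 (1.21) rose, while QPRT (-1.70), an enzyme of NAD synthesis from tryptophan, and NNMT (-1.38), which methylates nicotinamide, fell, 2 higher and 2 lower as compared with 6.31% and 7.53% of all genes. That list's median was -0.02 and turned to 0.02 with scaling by total counts, so it gives no direction.

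Matrix, adhesion and cytoskeleton genes changed member by member. FN1, fibronectin, measured 315, 302 and 271 CPM in the vehicle libraries and 129.8, 111 and 127 CPM in the treated libraries. The cell junction protein CDH1 measured 218, 223 and 215 CPM in the vehicle libraries and 91.7, 92.5 and 98.4 CPM in the treated libraries. The treated libraries of FN1 (-1.27 ± 0.070) and CDH1 (-1.22 ± 0.066) lay below all vehicle libraries. The transcription factors SNAI2 (2.15) and ZEB2 (1.28) and the lysyl oxidase LOXL2 (1.02) are 3 of the 4 that rose in the same list of 28 epithelial-mesenchymal and TGF-beta genes, of which 2 fell, as compared with 6.31% and 7.53% of all genes, and the list's median was 0.13. LOXL2 stood at 0.96 without vehicle replicate 2. Values in that list ran from -1.272 to 2.74, and the highest belonged to a member not named here. Among 11 tubulins, TUBB2B rose by 1.26 and TUBB4B fell by 1.05, as compared with 6.31% and 7.53% of all genes, with a median of -0.42, and reads of these similar genes can be shared.

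Most ribosomal protein transcripts were slightly higher and most mitochondrial transcripts lower. The 79 cytosolic ribosomal protein genes had a median of 0.37, and 77 of them were higher at an adjusted p under 0.05 as compared with 31.0% of all genes. By the fold threshold 0 were called by edgeR and 0 by DESeq2, and at an unadjusted p under 0.05 the counts were 77 higher and 1 lower, the latter RPS26 at -0.15. RPL4, of the large subunit, measured 2690, 2677 and 2662 CPM in the vehicle libraries and 3542, 3634 and 3578 CPM in the treated libraries. RPS2, of the small subunit, measured 2316, 2388 and 2301 CPM in the vehicle libraries and 2945, 2974 and 2851 CPM in the treated libraries. Neither overlapped between groups, at 0.42 ± 0.030 for RPL4 and 0.32 ± 0.032 for RPS2. Summed over the list, the level was 59592, 59786 and 59955 CPM with vehicle and 77338, 81027 and 77618 CPM with CP14, so ribosomal protein transcripts took a larger share of the treated libraries. The 13 protein-coding genes of mitochondrial DNA had a median of -0.56 and ran from -1.28 to 0.46. Of these genes 2 were higher and 11 lower at an adjusted p under 0.05, as compared with 31.0% and 32.1% of all genes. The cytochrome oxidase subunits MT-CO3 (-1.28 ± 0.048) and MT-CO2 (-1.05 ± 0.050) fell. Their list summed to 24848, 25265 and 25728 CPM with vehicle and 17195, 17016 and 16565 CPM with CP14.

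Of 50 listed interferon-stimulated genes 35 were tested, 1 rose and 5 fell, as compared with 6.31% and 7.53% of all genes, and the median was 0.10. At an adjusted p under 0.05 with no limit on size, 12 were higher and 12 lower, as compared with 31.0% and 32.1%. ISG15 was low and measured 2.29, 1.90 and 2.23 CPM in the vehicle libraries and 2.49, 2.64 and 2.15 CPM in the treated libraries. Its groups overlapped, with a log2 fold change of 0.17 ± 0.195, a 95% interval of -0.23 to 0.58 and an adjusted p of 0.46. TRIM25, a ubiquitin ligase that activates RIG-I, measured 114, 120.1 and 116 CPM in the vehicle libraries and 299, 301 and 295 CPM in the treated libraries. OAS1, which senses double-stranded RNA, measured 53.2, 55.2 and 47.1 CPM in the vehicle libraries and 23.2, 22.0 and 21.9 CPM in the treated libraries. TRIM25 was the member that rose (1.36 ± 0.044), and OAS1 fell by 1.21, both without overlap between groups. IFITM2 (-1.48), IFIT1 (-2.74), IFITM3 (-1.21) and TRIM22 (-1.21) fell as well, IFIT1 from 112, 88 and 128 counts to 17, 12 and 14 counts. The interferon motif TTTCNNTTT was in 3 of the 3 fallen members with a promoter and in 18 of 28 members tested. This compares with 9.28% of promoters and 5.94% of tested genes with a promoter. None of 15 genes of MHC class I presentation was called by edgeR or by DESeq2, as compared with 13.8% of all genes by edgeR, and the median was 0.19. At an unadjusted p under 0.05, and also at an adjusted one, 8 were higher and 2 lower, as compared with 31.0% and 32.1% of all genes at the adjusted p. B2M, the light chain of class I molecules, stood at -0.25 ± 0.037 and the loading factor TAPBP at -0.40 ± 0.040. Values in the list ran from -0.404 to 0.864, so both of these genes lie below its median.

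No NRF2 target was called. Of 28 genes that answer to oxidative or electrophilic stress, 0 were called by edgeR and 0 by DESeq2, as compared with 13.8% of all genes by edgeR. At an unadjusted p under 0.05, and also at an adjusted one, 6 were higher and 18 lower, as compared with 31.0% and 32.1% of all genes at the adjusted p, and the median was -0.38. Summed over the list, the level was 36843, 36736 and 36735 CPM with vehicle and 31577, 32793 and 32475 CPM with CP14. Whether these genes could rise further from their vehicle levels was not tested. Values in the list ran from -0.965 to 0.635, and both ferritin genes given next lie above its median. FTH1, the ferritin heavy chain, measured 4285, 4286 and 4351 CPM in the vehicle libraries and 6502, 6941 and 6634 CPM in the treated libraries. FTL, the light chain, measured 7923, 7692 and 7898 CPM in the vehicle libraries and 6947, 7929 and 7490 CPM in the treated libraries. FTH1 did not overlap between groups (0.64 ± 0.031) while FTL did, with -0.15 to 0.01 as its 95% interval, and both have processed pseudogenes that can share reads. Of 8 genes of the aryl hydrocarbon receptor pathway 3 rose and 1 fell, as compared with 6.31% and 7.53% of all genes, with a median of 0.50. TIPARP, a mono-ADP-ribosyltransferase that the receptor induces, measured 24.8, 26.3 and 28.1 CPM in the vehicle libraries and 82.0, 85.5 and 78.9 CPM in the treated libraries. The cytochrome CYP1B1 measured 158, 147 and 161 CPM in the vehicle libraries and 318, 306 and 325 CPM in the treated libraries. Groups did not overlap for either, with log2 fold changes of 1.64 ± 0.052 and 1.03 ± 0.059. CYP1A1 rose by 2.38 from 5, 6 and 8 counts to 27, 32 and 30 counts, and the glucuronosyltransferase UGT1A6 fell by 1.60. CYP1B1 stood at 0.99 without vehicle replicate 2.

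Transcripts without a poly(A) tail varied widely among the vehicle libraries. RPPH1, the RNA of ribonuclease P, measured 15.3, 42.8 and 3.03 CPM in the vehicle libraries and 4.71, 1.69 and 3.37 CPM in the treated libraries. RMRP, the RNA of ribonuclease MRP, measured 15.1, 33.2 and 3.27 CPM in the vehicle libraries and 3.08, 2.34 and 3.37 CPM in the treated libraries. RN7SL1, the signal recognition particle RNA, measured 83.6, 185 and 27.7 CPM in the vehicle libraries and 39.1, 18.7 and 19.1 CPM in the treated libraries. Vehicle replicate 2 was the highest library in each case and vehicle replicate 3 lay near the treated libraries, and the same held for RN7SK with 21.1, 49.5 and 4.63 CPM in the vehicle libraries and 7.74, 5.12 and 6.52 CPM in the treated libraries. Of 9 such RNAs tested, 7 were called lower by edgeR and 5 by DESeq2, as compared with 7.53% of all genes by edgeR, with a median of -1.92, but only 2 did not overlap between groups, as compared with 66.9% of all genes. Without vehicle replicate 2 the log2 fold changes were -1.48 for RPPH1, -1.63 for RMRP, -1.11 for RN7SL1 and -0.98 for RN7SK, as compared with -2.62, -2.52, -1.93 and -1.92 with all libraries. The summed level of the list was 222, 504 and 69.8 CPM with vehicle and 92.1, 51.0 and 57.7 CPM with CP14. Against CP14 at 2.5 µM, a comparison whose fold changes do not rest on the vehicle levels, the list's median was -0.01. It was 0.32 against CP18 at 5 µM and -1.40 against CP2 at 5 µM, with 2 of 9 called lower in the latter, as compared with 6.60% of all genes. Replication-dependent histone genes, whose transcripts also lack a tail, were summed at 47.4, 59.9 and 39.5 CPM with vehicle and 31.8, 35.0 and 33.3 CPM with CP14, again highest in vehicle replicate 2. Of 45 listed 43 were matched, 10 were tested and 4 fell, HIST1H2AI (-2.15), HIST1H3H (-1.34), HIST1H2BJ (-1.14) and HIST1H4E (-1.45), as compared with 7.53% of all genes, with a median of -0.66. In the fit of 27 empty-vector libraries, 18 were tested, 10 were called against vehicle, as compared with 13.5% of all genes, and the median was -1.33. The better covered HIST1H1C and HIST1H4H stood at -0.11 ± 0.096 and -0.35 ± 0.16. HIST1H2BJ lost its call without vehicle replicate 3 (-0.93) or treated replicate 1 (-0.88), and HIST1H4E, with counts of 21, 19 and 12 in vehicle libraries and 3, 7 and 7 in CP14 libraries, lost it when vehicle replicate 1, vehicle replicate 2 or treated replicate 1, 2 or 3 was left out (-1.297, -1.25, -1.16, -1.58 and -1.65). Over all genes, 2206 were called without vehicle replicate 2, and of the 2207 called with it 2004 kept their call.

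Of 22 genes chosen from those that the study names, some of them picked by it from A549 libraries like these and so no independent evidence of a direction, 21 were tested, 5 were called higher and 4 lower, as compared with 6.31% and 7.53% of all genes, with a median of -0.11, or -0.08 with genes at their bound where a group had 0 counts. NR4A2 measured 11.8, 12.3 and 12.9 CPM in the vehicle libraries and 2.27, 1.54 and 2.76 CPM in the treated libraries. LAMB3, the beta 3 chain of laminin-332, measured 39.3, 40.7 and 39.6 CPM in the vehicle libraries and 94.2, 98.9 and 98.6 CPM in the treated libraries. Both stood apart between groups, NR4A2 lower (-2.503 ± 0.14) and LAMB3 higher (1.29 ± 0.054). IL31RA, a cytokine receptor subunit, rose by 1.97 ± 0.297, and the deubiquitinase OTUD7A rose by 2.27 ± 0.402, from counts of 17, 9 and 4 to 46, 48 and 37. The others at low counts need their counts beside the call. KLK2 was at 0 counts in every vehicle library and at 6, 18 and 3 in the CP14 libraries, at least 3.24-fold higher against a floor of 3 counts per library, or at least 1.72-fold without treated replicate 2. DCC counts were 1, 3 and 1 in vehicle libraries and 0, 0 and 0 in CP14 libraries, and those of USP41, which shares sequence with USP18, were 0, 0 and 0 and 0, 4 and 0, so neither call rests on more than a few reads. DCC lost its call by DESeq2 and when vehicle replicate 2 or any 1 treated replicate was left out, and USP41 lost it when any 1 vehicle replicate or treated replicate 2 was left out, with a replicate block and in a fit of all 54 libraries. For NCCRP1 the vehicle libraries held 11, 13 and 14 counts and the CP14 libraries 1, 1 and 0. LINC00319 fell by 1.08 with overlapping groups, and lost its call without vehicle replicate 1 (-0.85), treated replicate 1 (-0.95) or treated replicate 2 (-0.81). ENTPD1 reached 4, 2 and 3 counts in vehicle libraries and 3, 4 and 7 in CP14 libraries, and FGF13, not tested, reached 2, 3 and 1 and 2, 8 and 9.

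The remaining genes of that list were better covered and shifted little. PCBP2 had a 95% interval of -0.08 to 0.06, DYNLL1 of -0.06 to 0.11 and NME1 of -0.17 to 0.02 on the log2 scale, and their groups overlapped. TUBA1C stood at -0.11 ± 0.042 with overlapping groups. BANF1 (-0.62 ± 0.037), TUBA4A (-0.42 ± 0.064), EIF5A (-0.34 ± 0.036), HAUS6 (-0.34 ± 0.044) and the processed pseudogene ANXA2P2 (-0.46 ± 0.12) were lower at an adjusted p under 0.05 without passing the fold threshold, and reads of ANXA2P2 can belong to its parent gene.

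Among the empty-vector groups compared, CP14 at 5 µM had the most called genes. In a fit of all 27 empty-vector libraries, in which every treatment shares the same 3 vehicle libraries, 8 of 16217 genes were called at CP14 1 µM (0.0493%), 82 at 2.5 µM (0.506%) and 2197 at 5 µM (13.5%). At 5 µM the other compounds gave 58 calls for CP18 (0.358%) and 59 for CP2 (0.364%). Median log2 fold changes of the mitosis genes were 0.05 at CP14 1 µM, 0.03 at 2.5 µM and -1.73 at 5 µM, and 0.16 for CP18 and 0.18 for CP2 at 5 µM. For ATF4 targets the medians in the same order were -0.03, 0.10, 1.17, 0.03 and 0.06. The medians of liver-type genes in that order were -0.01, -0.38, -1.66, -0.35 and -0.41, and those of NF-kappaB genes were 0.11, 0.36, 1.36, 0.20 and 0.19.

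**Figure D4:**
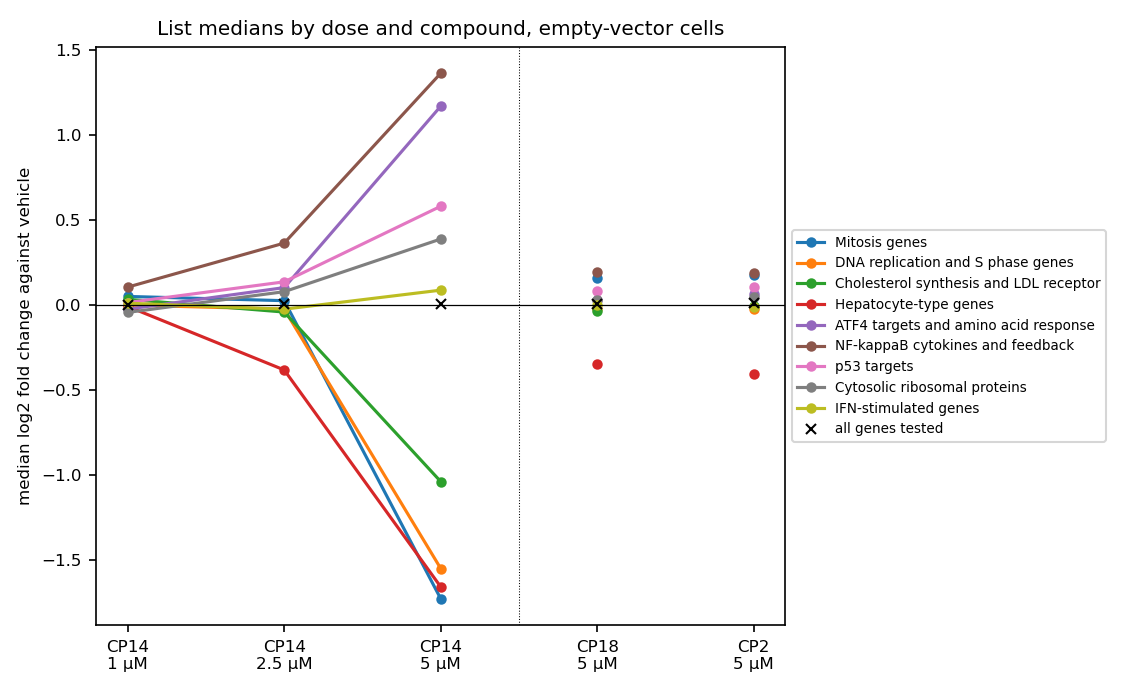
The vertical axis is the median log2 fold change against vehicle over the tested members of 9 gene lists and over all genes (crosses), and the horizontal axis is the treatment of empty-vector cells, with lines joining the 3 doses of CP14. All treatments share the vehicle libraries, and the lists spread from -1.73 to 1.36 at CP14 5 µM.

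The dose comparison sets CP14 at 5 µM directly against CP14 at 2.5 µM, so its fold changes do not rest on the vehicle levels. The vehicle libraries were part of the fit and so entered the filter and the estimate of spread. Of 16217 genes 828 were higher (5.11%) and 1008 lower (6.22%) at 5 µM. All 35 mitosis genes were lower at 5 µM, with a median of -1.77, as were 35 of 39 replication genes and 13 of 25 cholesterol genes, while 19 of 37 ATF4 targets and 10 of 18 NF-kappaB genes were higher. FAM129A measured 17.8, 16.66 and 18.4 CPM at 2.5 µM, above its vehicle level but far under its level at 5 µM. HSPA6 measured 0.893, 0.721 and 0.549 CPM and KRT4 15.6, 17.9 and 15.9 CPM at 2.5 µM, both near their vehicle levels. The 5 largest rises over 2.5 µM were HSPA6 (4.12 ± 0.297), BEX2 (3.80 ± 0.13), LAMP3 (3.77 ± 0.28), FAM129A (3.61 ± 0.060) and ADM2 (3.42 ± 0.14). The 5 largest falls were KRT4 (-3.69 ± 0.15), NEB (-3.04 ± 0.21), FGB (-2.98 ± 0.095), BAAT (-2.91 ± 0.11) and TMEM37 (-2.81 ± 0.15). NR4A1 was lower at both doses, and -0.98 was its log2 fold change against vehicle at 2.5 µM and -1.85 at 5 µM in the same fit, with a difference between doses of -0.88 ± 0.096.

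Matched comparisons at 5 µM and 48 h set CP14 against CP18 and against CP2, 2 pairs of compounds that share the CP14 libraries. Against CP18, 868 genes were higher with CP14 (5.35%) and 1117 lower (6.89%), and against CP2, 887 were higher (5.47%) and 1070 lower (6.60%). All 35 mitosis genes were lower with CP14 in both, with medians of -1.88 against CP18 and -1.92 against CP2, and 33 and 33 of 39 replication genes were lower. ATF4 targets were higher with CP14 for 22 of 37 against CP18 and 20 of 37 against CP2. LAMP3, for example, measured 0.556, 0.224 and 0.250 CPM with CP18 and 0.841, 0.531 and 0.358 CPM with CP2. MKI67 measured 505, 493 and 518 CPM with CP18 and 505, 653 and 494 CPM with CP2. Neither compound brought these genes to the levels seen with CP14. The 5 largest rises against CP18 were LAMP3 (4.97 ± 0.33), FAM129A (4.76 ± 0.068), BEX2 (4.46 ± 0.14), HSPA6 (4.01 ± 0.299) and INSYN2B (3.99 ± 0.27), and the 5 largest falls were CA9 (-3.70 ± 0.18), KRT4 (-3.52 ± 0.16), NEB (-3.43 ± 0.205), FGB (-3.07 ± 0.095) and BAAT (-2.95 ± 0.11). Against CP2 the rises of BEX2 (4.88 ± 0.14), FAM129A (4.47 ± 0.066), LAMP3 (4.16 ± 0.298) and HSPA6 (3.76 ± 0.29) and the falls of NEB (-3.20 ± 0.21), FGB (-2.97 ± 0.095), the long non-coding RNA GACAT2 (-2.89 ± 0.14) and KIF20A (-2.87 ± 0.059) were among the largest.

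The largest differences from CP2 in each direction were in transcripts that vary between libraries. AC006064.6 measured 0.505, 0 and 0 CPM with CP2, 17.8, 12.7 and 2.82 CPM with CP14 and 5.43, 15.2 and 5.11 CPM with vehicle, so its difference from CP2 (5.73 ± 1.4, adjusted p = 0.00083) was present while CP14 did not differ from vehicle beyond the spread of these libraries (95% interval -0.50 to 1.37). CU634019.1, a locus of uncertain mapping, measured 16.4, 0.478 and 14.3 CPM with CP2 and had 2, 0 and 0 counts with CP14. The 15 MHC class I genes had medians of 0.20 against CP18 and 0.14 against CP2, and the 8 aryl hydrocarbon receptor genes had 0.06 and 0.02. Of those 8 genes, 2 were called higher and 2 lower against CP18, as compared with 5.35% and 6.89% of all genes. Against CP2, 0 were called higher and 2 lower, as compared with 5.47% and 6.60%. ISG15 had 95% intervals of -0.55 to 0.59 against CP18 and -0.43 to 0.71 against CP2. USP18 had -0.39 to 0.04 and -0.23 to 0.21, and these widths leave room for differences within those bounds.

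**Figure D5:**
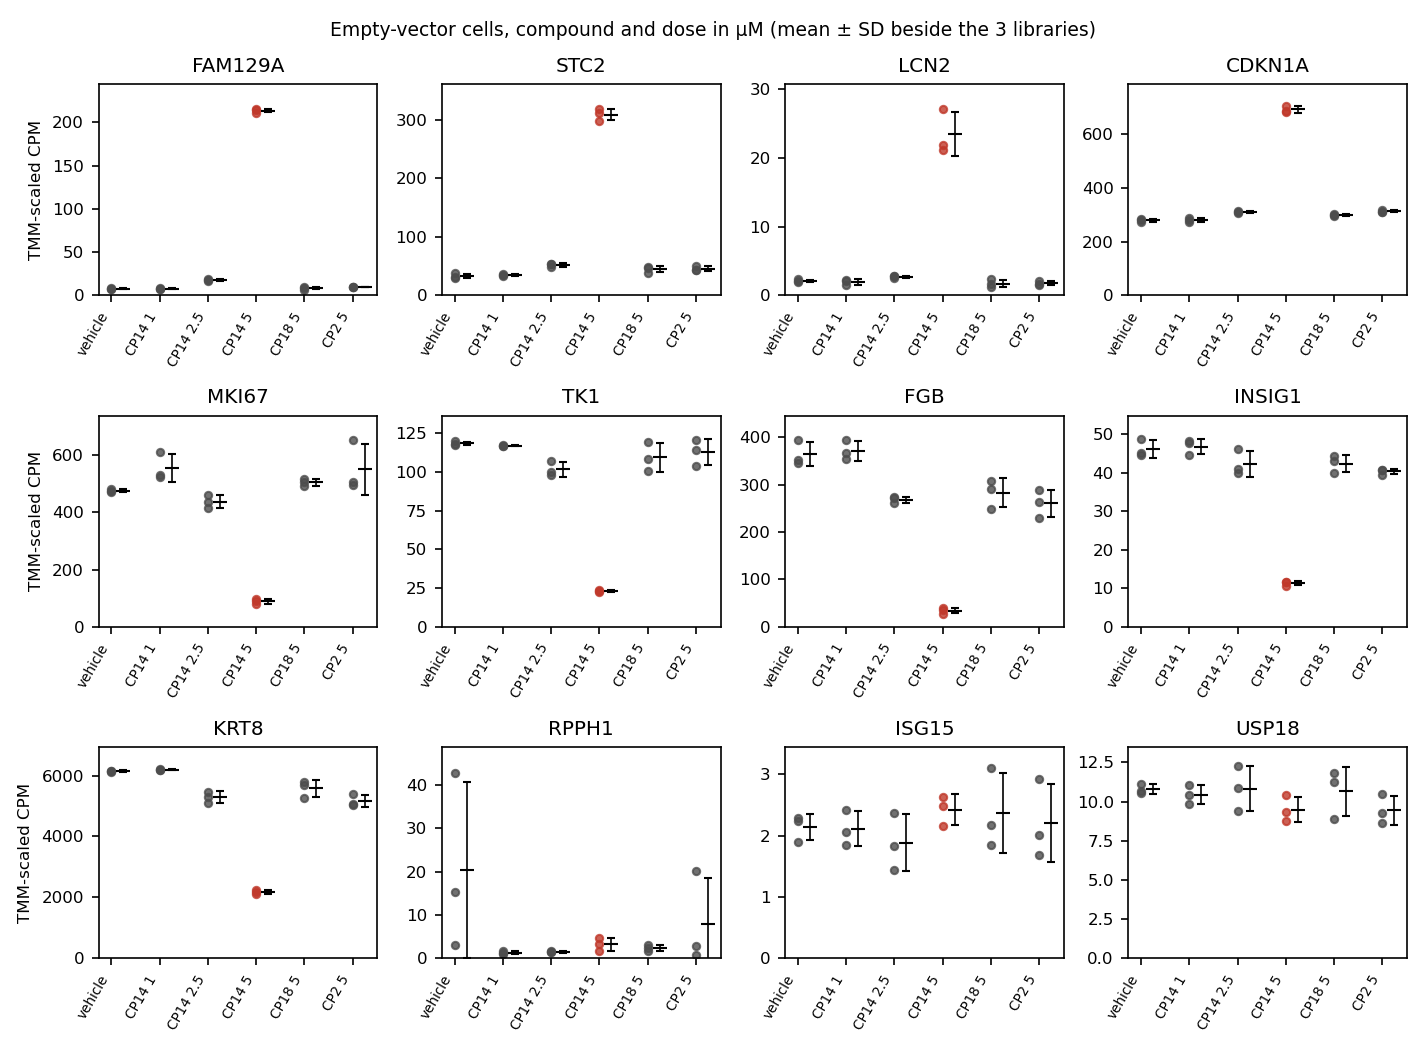
Points are single libraries of empty-vector cells in TMM-scaled CPM, with the mean and SD of each group of 3 beside them, for vehicle, CP14 at 1, 2.5 and 5 µM, and CP18 and CP2 at 5 µM, on axes that start at 0 and clip error bars below 0 for RPPH1. FAM129A, STC2, LCN2 and CDKN1A are high and MKI67, TK1, FGB, INSIG1 and KRT8 low with CP14 at 5 µM (red), whereas RPPH1 is highest in 1 vehicle library and varies within vehicle and CP2, and for ISG15 and USP18 the spread within groups is as wide as the gaps between most of them.

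The same dose was given to USP18 cells, and an interaction term asks whether the change differs between the cell populations. It passed an adjusted p under 0.05 for 4410 of 15947 genes (27.7%). With the empty vector and with the USP18 vector, in that order, list medians were -1.75 and -1.70 for mitosis, -1.57 and -1.62 for replication, -1.06 and -1.15 for cholesterol synthesis, and 1.16 and 1.01 for ATF4 targets. The interaction passed for 11 of 35 mitosis genes, 15 of 39 replication genes, 15 of 25 cholesterol genes and 25 of 37 ATF4 targets. Among immediate early genes the interaction passed for 27 of 32, with a median interaction of 0.62, and among mitochondrially encoded genes for 12 of 13 with -0.51. NRF2 targets (21 of 28, -0.35) and endoplasmic reticulum genes (20 of 23, -0.39) had medians below 0. ASGR1 measured 8.29, 10.1 and 10.0 CPM in the vehicle libraries and 1.41, 1.09 and 0.994 CPM in the treated libraries in empty-vector cells. In USP18 cells it measured 2.01, 1.82 and 1.25 CPM with vehicle, already near the treated level of empty-vector cells, and 1.51, 2.18 and 1.48 CPM with CP14, a change of 0.04 ± 0.23 and an interaction of 3.06 ± 0.31 (adjusted p = 2.4e-07). ISG15 measured 1.304, 1.43 and 1.78 CPM with vehicle and 4.05, 3.81 and 4.80 CPM with CP14 in USP18 cells, an interaction of 1.32 ± 0.28. FAM129A rose less in USP18 cells, by 3.38 ± 0.043, from 29.1, 30.3 and 26.7 CPM with vehicle. Its interaction was -1.45 ± 0.077 (adjusted p = 4.7e-11).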

How the data were processed

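RNA was sequenced from A549 cells in 54 libraries, of which 6 form the main comparison. The values are expected counts per gene that RSEM estimated before the authors deposited them, with no scaling between libraries, and 94.0% of them were whole numbers. The submitters' processing notes name bcl2fastq, cutadapt 1.18, STAR 2.7.0f, RSEM 1.3.1 and hg38. The methods name RSEM 1.3.3 and, for RSEM, a mouse annotation, whereas the gene identifiers are human, and they name GENCODE 30 for the alignment. The labels describe poly(A) selection with a stranded kit and the methods describe ribosomal RNA depletion, so which was used for these libraries is uncertain.

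Expected counts were rounded to whole numbers and tested with edgeR 4.0.16 (quasi-likelihood test, TMM factors) in R 4.3.3, with Benjamini-Hochberg adjustment over all genes tested. The filter filterByExpr asked for about 10 counts, scaled to library size, in as many libraries as a group holds, and 15 in total. It ran over all libraries of a fit, so USP18 cells alone could carry a gene such as DCC or USP41 through it. With only the 6 libraries in filter and fit, 2021 of the 2207 called genes were tested and 2005 kept their call. The main comparison and the interaction were fitted on 12 libraries (vehicle and CP14 5 µM in both cell populations), and the dose and compound comparisons on the 27 empty-vector libraries. Replicates of the main groups differed by more than counting noise (mean chi-square per gene from 2.30 to 4.45), so no library repeats another. The scripts were tested on simulated data. Intervals are 95% intervals of the fitted log2 fold change, and the floor for a count of 0 was 3 counts per library and covers counting error only. Near-identical paralogs and pseudogenes can share reads, and this holds for HSPA6, HSPA1A, tubulins, ferritins, histones, ribosomal proteins, USP41 and ANXA2P2.

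Genes were named by rule: of the called genes whose groups do not overlap and whose mean is at least 5 CPM, the 15 that rose most and the 15 that fell most; up to 4 called members per list at that level (or its 2 most abundant), 22 of the genes that the study names, and the 5 largest rises and falls of each direct comparison. This gave 145 genes, of which 5 are not reported here, and 22 more were named after their values were seen, where a list had 5 or fewer called members or to complete the epithelial markers. The members and the 33 gene lists were chosen with earlier results of these data known, so no set was tested. Promoters came from RefSeq (GRCh38.p14), 250 bases upstream. Alternatives were DESeq2 1.42.0, median-of-ratios scaling, total counts, no filter, at least 10 counts in every library, other libraries in the fit, a replicate block, calls of any size, and leaving out each replicate.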

Additional observations from a re-analysis of the deposited data

Results flagged for a closer look

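For 73 of 161 named genes tested, the change with CP14 5 µM differed between empty-vector and USP18 cells by the interaction term of the edgeR fit at an adjusted p under 0.05, as compared with 27.7% of all genes. Many named genes were chosen by their change in the empty-vector libraries that also enter this term, so their share is not directly comparable with that of all genes. Of the 73, the change was larger in USP18 cells for 47, and smaller for 26, and 8 of these genes had the opposite sign there. Values below are the log2 fold change in USP18 cells minus that in empty-vector cells, so a negative value marks a weaker rise or a stronger fall in USP18 cells. Among the largest rises, the values were FAM129A -1.45, ADM2 -0.72, LCN2 0.74, ABLIM3 0.80, CDCP1 -0.94, TMEM158 -0.73 and RPS6KA2 -0.99. Among the largest falls they were CA9 -1.09, FGB -1.12, CP -1.13, INSL4 -0.84, VIL1 -1.23, ASGR1 3.06, H19 -1.01 and PDZK1 1.68. In the cell cycle and histone lists they were ASPM 0.27, RRM2 -0.82, EXO1 -0.40, CDKN1A 0.76 and HIST1H1C 0.58. For the ATF4, endoplasmic reticulum, autophagy and p53 or apoptosis lists they were GADD45A 0.83, SESN2 0.61, BCL2A1 1.67, BBC3 0.52, ATF3 0.66, CHAC1 -1.14, DDIT3 1.21, HSPA5 -0.37, CALR -0.47, MAP1LC3B 0.43 and ASNS -0.68. The immediate early and NF-kappaB lists gave FOSL1 0.69, NR4A2 -0.57, CXCL8 -0.66, TRAF1 0.76, RELB -0.39, NFKB2 -0.51 and FOS 0.55. Members of the metabolic and liver-type lists gave FTH1 -0.14, CYP1B1 -0.61, ACAT2 -0.64, SLC2A3 0.35, EGLN3 -1.02, NNMT -0.46, FGA -0.99, APOH -0.79, MT-CO3 -0.43, MT-CO2 -0.99, LDHA -0.36 and VEGFA -0.32. In the interferon, MHC, matrix, tubulin and cell type marker lists the values were TRIM25 0.57, OAS1 -0.84, TAPBP -0.24, FN1 -0.79, LOXL2 -0.25, TUBB4B -0.20, KRT18 0.18, COL1A1 0.76, CD68 0.71, ZEB2 3.23, KRT7 0.22, KRT19 0.93 and COL3A1 -1.84. The genes chosen from those the study names had IL31RA 1.71, KLK2 -5.50, NCCRP1 4.25, ISG15 1.32, USP18 0.82, DYNLL1 -0.23, BANF1 -0.37, ANXA2P2 0.67 and TUBA1C -0.27. The level of USP18 is far higher in USP18 cells, which carry its expression vector. Its value thus sets a change in mostly vector transcript against a change in the cells' own transcript. CU634019.1, with 2, 0 and 0 counts in the treated empty-vector libraries, gave 14.40. The fitted values of CU634019.1, KLK2 and NCCRP1 depend on the prior count, because some of their groups are at or near 0 counts, and give no bound. Each vector is 1 engineered population, so these differences cannot be told apart from other differences between the populations.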

How the results depend on the processing

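With at least 10 counts required in every library, which tests fewer genes, the called genes numbered 1338 (587 higher, 751 lower) against vehicle, 1134 (475 higher, 659 lower) against CP14 2.5 µM, 1261 (543 higher, 718 lower) against CP18 and 1234 (553 higher, 681 lower) against CP2. Calls of any size at an adjusted p under 0.05 numbered 10072 (4949 higher, 5123 lower) against vehicle. The other settings kept the count against vehicle within 1.5 times of 2207, with 2206 under median-of-ratios scaling, 2219 under total counts, 2556 with no filter, 2105 with DESeq2, 2026 on the 6 libraries alone and 2338 on all 54. Leaving out 1 library gave 2169 to 2293 against vehicle, 1752 to 1857 against 2.5 µM, 1957 to 2033 against CP18, 1912 to 2016 against CP2 and 3705 to 4731 for the interaction. The replicate numbers did not pair the libraries, since same-numbered deviations of the treated and vehicle libraries correlated at -0.052, -0.022 and 0.006, and with the replicate number as a block 2192 genes were called. Of named genes called against vehicle, all but USP41 kept their sign in each setting in which they were tested. Among named genes not called, PCBP2 changed sign to 0.037 and KRT19 to 0.009 under total counts, and KRT19 ran from -0.104 to 0.061 and AC006064.6 from -0.062 to 1.083 as 1 library was left out. USP41, called with all libraries, ran from 0 without treated replicate 2 to 4.17 without treated replicate 1, fitted values that depend on the prior count. Calls were lost in at least 1 setting for COL1A1, CYP1B1, DCC, HIST1H2BJ, HIST1H4E, HSPA1A, LDHA, LINC00319, LOXL2, LUM, RN7SK, THY1 and USP41. With 17866670 to 25609062 counts per library, genes of a few counts, such as DCC or FGF13, carry no usable fold change.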
